A study of Mus musculus with 16 samples.

Results

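Hba-a1, Hba-a2, Hbb-bs, Hbb-bt and Alas2 are 5 of the 11710 genes in the count table of a mouse muscle study: the adult alpha globins, the adult beta globins and the erythroid enzyme that starts heme synthesis. They were chosen by name, as the genes of hemoglobin and its heme supply, because earlier results of these data showed a strain difference in Hba-a2. All 5 were found and passed the filter on low counts. The strain difference is therefore given as a description without a test, and the tests concern surgery and its interaction with strain.

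RNA of rotator cuff muscle was sequenced in 16 samples, with 4 in each of 4 groups. The unoperated controls were C57BL/6J mice (BL6 below) and MRL/MpJ mice (MRL below), and no transgene or drug is named for any group. The operated BL6 and operated MRL groups had the rotator cuff tendon removed and the muscle denervated. The series text names the infraspinatus and the sample labels the supraspinatus, and age, sex and time after surgery were not used here. The labels do not say that the samples of a group came from separate animals. The p-values therefore set group differences against the spread between these samples only, which may be technical.

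Adult hemoglobin is a tetramer of alpha and beta chains, each holding a heme. Developing red cells in the bone marrow make these chains in matched amounts, with alpha and beta genes in separate clusters on different chromosomes, both switched on by erythroid factors such as GATA1 and KLF1. Alas2 is the erythroid form of 5-aminolevulinate synthase, and Alas1 is the form of other tissues. Mature red cells have no nucleus, and the youngest of them, reticulocytes, still carry globin mRNA, so blood held in a tissue brings globin mRNA into its libraries. Skeletal muscle makes its own oxygen store with myoglobin, a different globin. Bulk RNA cannot tell fewer cells of a type from less RNA per cell.

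Total counts ran from 24323862 to 43552964 per sample, and 3 counts, the floor used here, correspond to 0.0689 to 0.123 CPM (counts per 1000000 counts of the sample, scaled by edgeR's TMM factors where gene levels are given). The labelled tissue was checked with 12 skeletal muscle markers, all of which were measured. Their summed level ran from 73929 to 233567 CPM, led by the fast myosin Myh4, the calcium pump Atp2a1 and the troponin Tnnt3. Of 13 lymphocyte markers 2 were in the table, as were 2 of 15 neutrophil markers, and the others were not analysed here.

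The genes lie at these GRCm38 positions, taken from the GENCODE M21 annotation of the build the submitters named as mm10. Hba-a1 (ENSMUSG00000069919) is at chr11:32283511-32284465 and Hba-a2 (ENSMUSG00000069917) at chr11:32296489-32297298, both on the plus strand. Hbb-bs (ENSMUSG00000052305) is at chr7:103826534-103828096 and Hbb-bt (ENSMUSG00000073940) at chr7:103812524-103813996, both on the minus strand. Alas2 (ENSMUSG00000025270) is at chrX:150547375-150570638 on the plus strand. Each globin gene has 3 exons and Alas2 has 11.

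The coding sequences of the globin pairs are shown first because they decide how well reads can be assigned to a copy. Those of Hba-a1 and Hba-a2, 429 bases each, differ at 1 base, the substitution C381T, counted from 1 at the first coding base with the Hba-a1 base first. It lies in exon 3 of both genes, at position 32284343 of chromosome 11 in Hba-a1 and 32297160 in Hba-a2. The coding bases 351 to 411 around it are printed with the differing base in capitals.
Hba-a1: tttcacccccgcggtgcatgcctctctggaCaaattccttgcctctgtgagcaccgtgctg
Hba-a2: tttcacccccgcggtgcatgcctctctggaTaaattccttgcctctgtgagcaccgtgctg
Those of Hbb-bs and Hbb-bt, 444 bases each, also differ at 1 base, C417T, with the Hbb-bs base first. It lies in exon 3, at position 103826692 of chromosome 7 in Hbb-bs and 103812683 in Hbb-bt, and the coding bases 387 to 444 on the minus strand are printed.
Hbb-bs: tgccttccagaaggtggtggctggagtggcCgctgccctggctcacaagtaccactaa
Hbb-bt: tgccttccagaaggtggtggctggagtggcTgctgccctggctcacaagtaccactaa
Of the 50-base stretches of coding sequence, 12.9% in each alpha gene and 7.09% in each beta gene occurred in no annotated transcript of another gene. For Alas2 the share was 100%. Over whole transcripts, untranslated ends included, the share was 32.5% for Hba-a1, 13.1% for Hba-a2, 34.2% for Hbb-bs and 41.7% for Hbb-bt. How reads that match both copies were counted, and whether strand was used, is not given in the sources used here. Counts of single copies are therefore uncertain, and sums over the copies of a chain are given beside them. If reads that match both copies were left out, the sums lack them too. The mm10 genome is that of C57BL/6J, and how reads from MRL alleles that differ from it were assigned was not tested. The strains may carry different globin haplotypes, which was not tested either. Strain differences in single copies, their shares, the sums and the ratios built on the sums are therefore differences in assigned counts.

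The stretches before the start sites of Hba-a2, Hbb-bs and Alas2 are printed as a description of sequence. Whether they bear on the levels measured here was not tested. They are from RefSeq on GRCm38.p6, which held all 5 genes, and bases in annotated exons were left out. For Hbb-bs this leaves a far and a near piece, on either side of the first exon of a minor transcript. Capitals mark the strings searched on both strands, which do not overlap in the stretches printed. A GATA string had the letters AGATAA or, with its last letter changed, AGATAG, or else TGATAA or, changed likewise, TGATAG. The other strings were CCACCC, known from CACCC boxes, then CCAAT and, near the start site, ATATAA.
Hba-a2, chr11:32296242-32296488, plus strand: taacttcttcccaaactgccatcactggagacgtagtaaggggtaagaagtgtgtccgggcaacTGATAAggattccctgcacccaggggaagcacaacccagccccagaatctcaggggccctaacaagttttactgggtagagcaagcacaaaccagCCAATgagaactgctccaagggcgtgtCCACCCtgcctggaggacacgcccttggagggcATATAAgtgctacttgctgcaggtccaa
Hbb-bs, chr7:103828097-103828178, minus strand: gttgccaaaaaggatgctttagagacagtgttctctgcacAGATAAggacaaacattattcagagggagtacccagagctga
Hbb-bs, chr7:103827929-103828011, minus strand: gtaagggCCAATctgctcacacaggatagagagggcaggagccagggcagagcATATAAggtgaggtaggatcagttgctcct
Alas2, chrX:150547167-150547374, plus strand: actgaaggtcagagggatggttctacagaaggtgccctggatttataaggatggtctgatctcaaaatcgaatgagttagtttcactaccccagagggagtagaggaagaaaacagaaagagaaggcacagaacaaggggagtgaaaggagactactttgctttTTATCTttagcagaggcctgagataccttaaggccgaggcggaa
In the 250 bases before the RefSeq start, Hba-a1 and Hba-a2 each held 1 match to each of the 4 strings. Hbb-bs held a GATA string, CCAAT and ATATAA but not the exact string CCACCC. Other forms of a CACCC box were not searched, so this does not show that such a box is absent. Hbb-bt held no GATA string, 1 CCACCC, 3 CCAAT and 1 ATATAA. Alas2 held 1 GATA string, here in its reverse form, and 3 CCACCC matches, each overlapping the next and lying after the printed stretch. Of all 32851 windows of this length, 26.5% held a GATA string, 28.1% CCACCC, 33.9% CCAAT and 9.10% ATATAA. The windows of Hba-a1 and Hba-a2 shared an unbroken run of 247 bases. Those of Hbb-bs and Hbb-bt, whose coding sequences are nearly the same, shared no run over 14 bases. A match is a description of letters and not of a bound site.

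Globin mRNA was a small part of every library. The 4 globin genes together took 0.0296% of the counts in the lowest sample, replicate 4 of unoperated MRL, and 0.607% in the highest, replicate 3 of operated MRL. Without surgery the globins took 0.0704% ± 0.0502 of counts in BL6 (SD, n = 4) and 0.0894% ± 0.0674 in MRL, and after it 0.0768% ± 0.0408 and 0.221% ± 0.258. The spread between replicates was wide in every group. Myoglobin (Mb), the muscle globin, averaged 5307 CPM over the 16 samples.

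Per kilobase of transcript, which allows for length alone, Hbb-bs was the highest of the 5 in unoperated BL6, at 784 ± 588 CPM per kilobase (SD, n = 4). Hba-a1 followed at 162 ± 131, then Hba-a2 at 137 ± 109, Hbb-bt at 136 ± 95.5 and Alas2 at 14.8 ± 10.7. In unoperated MRL the order was Hbb-bs at 987 ± 757, Hba-a1 at 286 ± 223, Hbb-bt at 85.2 ± 66.3, Alas2 at 13.0 ± 10.7 and Hba-a2 at 0.761 ± 0.453. Hba-a2 thus stood beside Hba-a1 and Hbb-bt in BL6 and last in MRL. These orders rest on the authors' handling of reads shared by near-identical copies. Alas2 has no such copy, so its level and those of the globins are not fully comparable.

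Among the alpha chain genes, Hba-a1 in unoperated BL6 measured 72.4, 55.3, 250.1 and 75.7 CPM in replicates 1 to 4, and in operated BL6 87.6, 70.9, 145 and 169 CPM. In unoperated MRL it measured 253, 397, 88.1 and 62.7 CPM, and in operated MRL 195, 257, 1455 and 220 CPM. Replicate 3 stood far above the other samples in unoperated BL6 and in operated MRL, and unoperated MRL was split between a higher and a lower pair. From low to high, the group means came in the order unoperated BL6, operated BL6, unoperated MRL and operated MRL, and each neighbouring pair of ranges overlapped.

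Hba-a2, the other alpha copy, measured 47.5, 37.8, 166 and 52.4 CPM in unoperated BL6 and 56.7, 50.7, 95.5 and 118 CPM in operated BL6. In unoperated MRL it measured 0.611, 0.664, 0.194 and 0.217 CPM, from 20, 26, 6 and 8 counts. In operated MRL it measured 1.54, 0.902, 1.17 and 0.184 CPM, from 38, 26, 33 and 7 counts. Every MRL sample lay above the floor of 3 counts and far below every BL6 sample. The mean in MRL was 180-fold lower among unoperated samples, with a fitted log2 fold change of -7.46 (SE 0.67), and 84.5-fold lower among operated samples, with -6.46 (SE 0.63). This is the difference that led to the choice of these genes.

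The summed alpha chain did not show that gap. It averaged 189 ± 152 CPM (SD, n = 4) in unoperated BL6 and 201 ± 156 CPM in unoperated MRL, a log2 ratio of means of 0.08, and the ranges overlapped. Within BL6, Hba-a2 took 39.3% to 41.7% of alpha counts in all 8 samples, a far narrower spread than that of its level. Within MRL it took 0.0804% to 0.784%. In MRL the few Hba-a2 counts did not follow Hba-a1: replicate 3 of operated MRL had 33 of 41021 alpha counts (95% exact Clopper-Pearson interval 0.0554% to 0.113%), and replicate 1 had 38 of 4848 (0.555% to 1.07%). These intervals, which cover counting error only, do not overlap.

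**Figure D1:**
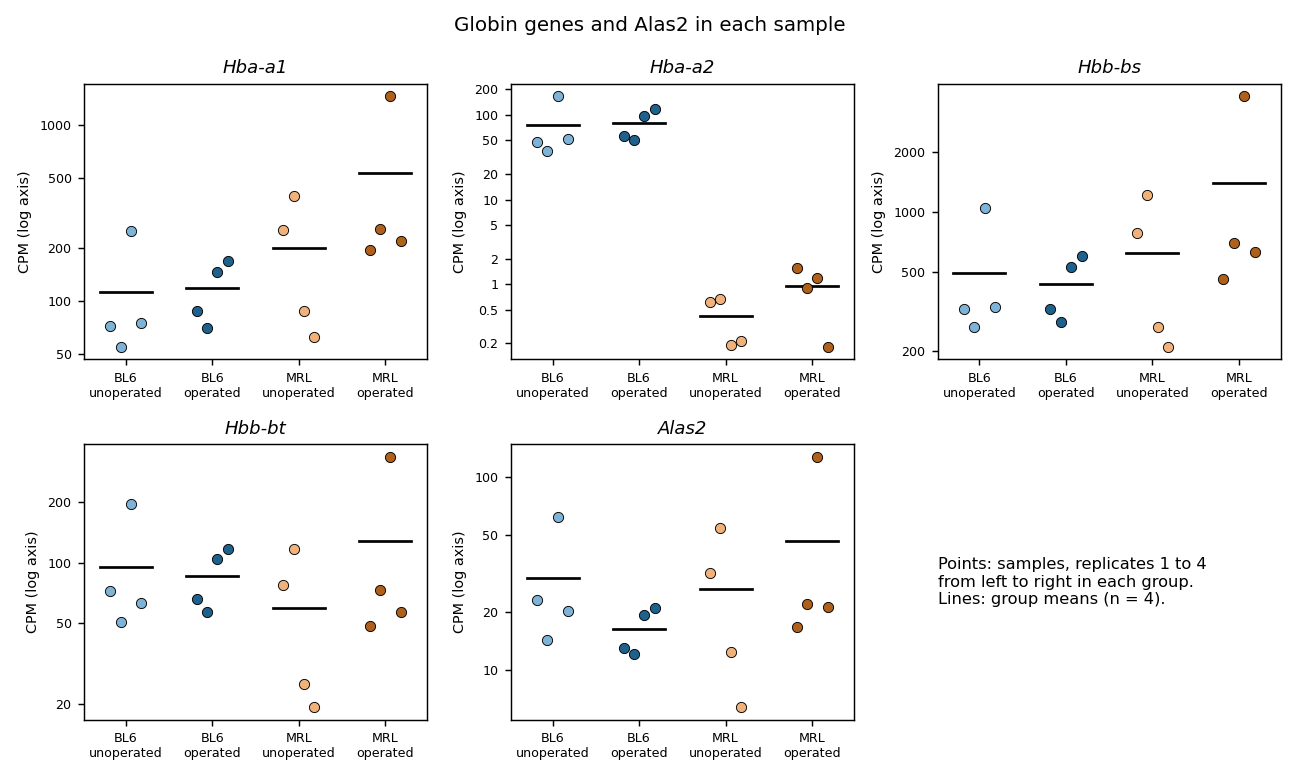
Level of each gene in CPM on a log axis, by group, with a point for each sample (replicates 1 to 4 from left to right) and a line at the group mean (n = 4). Hba-a2 lay at 37.8 CPM or more in every BL6 sample and at 1.54 CPM or less in every MRL sample, and replicate 3 of operated MRL was the highest sample for the other 4 genes.

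Among the beta chain genes, Hbb-bs measured 327, 264, 1044 and 334 CPM in unoperated BL6 and 326, 281, 531 and 601 CPM in operated BL6. In unoperated MRL it measured 785, 1218, 266 and 211 CPM, and in operated MRL 459, 701, 3817 and 627 CPM. The same samples were high as for Hba-a1. Its group means were lowest in operated BL6, then unoperated BL6, unoperated MRL and operated MRL, with every neighbouring pair of ranges overlapping.

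Hbb-bt, the other beta copy, measured 72.5, 50.8, 195 and 62.9 CPM in unoperated BL6 and 66.2, 57.0, 105 and 117 CPM in operated BL6. In MRL it measured 78.0, 117, 24.995 and 19.2 CPM in unoperated samples and 48.7, 73.5, 336 and 57.1 CPM in operated samples. Its means ran from 59.9 ± 46.6 CPM (SD, n = 4) in unoperated MRL over 86.2 ± 29.1 in operated BL6 and 95.4 ± 67.2 in unoperated BL6 to 129 ± 139 in operated MRL, and neighbours in that order overlapped. The order differed from that of Hbb-bs, in which both MRL groups stood above both BL6 groups.

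Set against the sum of the beta copies, the strains separated for Hbb-bt too. It took 15.8% to 18.2% of beta counts in the 8 BL6 samples and 8.09% to 9.60% in the 8 MRL samples. The BL6 means were 16.5% ± 1.13 without and 16.6% ± 0.285 with surgery (SD, n = 4), and the MRL means 8.69% ± 0.297 and 8.88% ± 0.771. The share differed 1.90-fold between strains among unoperated samples, while the Hbb-bt level itself overlapped between them. Summed beta averaged 588 ± 436 CPM in unoperated BL6 and 680 ± 522 CPM in unoperated MRL, a log2 ratio of means of 0.21 with overlapping ranges.

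Alas2 measured 23.3, 14.5, 62.3 and 20.3 CPM in unoperated BL6 and 13.1, 12.2, 19.4 and 21.04 CPM in operated BL6. In unoperated MRL it measured 31.9, 54.9, 12.4 and 6.45 CPM, and in operated MRL 16.8, 22.2, 127 and 21.3 CPM. The high samples were again those of the globin genes. Its means ran from 16.4 ± 4.44 CPM (SD, n = 4) in operated BL6 over 26.4 ± 21.9 in unoperated MRL and 30.1 ± 21.8 in unoperated BL6 to 47.0 ± 53.7 in operated MRL, and neighbouring ranges overlapped.

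Among unoperated samples the CPM ranges of the strains did not overlap for 1 of the 5 genes, Hba-a2, beside 25.1% of all genes tested. Among operated samples they did not overlap for 2, Hba-a1 and Hba-a2, beside 13.6% of all genes. The rule used the strain contrast, so these counts are given as description. Operated MRL held summed alpha at 533 ± 616 CPM (SD, n = 4) against 198 ± 78.5 in operated BL6, a log2 ratio of means of 1.43, which was 0.18 without replicate 3 of operated MRL. Summed beta was at 1530 ± 1753 CPM against 521 ± 184, a log2 ratio of 1.55, which was 0.33 without that sample.

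None of the 5 genes passed the test for surgery in BL6, which was edgeR's quasi-likelihood test with Benjamini-Hochberg adjustment over all genes, where 67.9% of the 11709 genes tested were called at an adjusted p under 0.05. None of the 5 reached an unadjusted p under 0.05, and DESeq2 and limma-voom called 0 of 5 as well. The CPM ranges of operated and unoperated BL6 overlapped for all 5, while they did not overlap for 56.8% of genes. The fitted log2 fold changes were 0.06 (SE 0.71) for Hba-a1, 0.08 (SE 0.46) for Hba-a2, -0.18 (SE 0.69) for Hbb-bs and -0.14 (SE 0.66) for Hbb-bt. For Alas2 it was -0.87 (SE 0.70), with an adjusted p of 0.280 in that test.

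These estimates are wide. The 95% interval for Hbb-bs ran from -1.64 to 1.28 on the log2 scale and that for Alas2 from -2.36 to 0.62, so both falls and rises lie within them. Replicate 3 of unoperated BL6 decided the size of the BL6 values: without it Alas2 was at -0.23 and Hbb-bs at 0.50. The adjusted p of Alas2 ran from 0.0907 to 0.787 over the alternatives.

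In MRL, none of the 5 genes passed edgeR's quasi-likelihood test for surgery, in which 45% of all genes were called. None had an unadjusted p under 0.05, and DESeq2 and limma-voom called 0 of 5. The ranges overlapped for all 5, against 33.7% of genes without overlap. The log2 fold changes were 1.41 (SE 0.72) for Hba-a1, 1.08 (SE 0.75) for Hba-a2, 1.18 (SE 0.70) for Hbb-bs, 1.10 (SE 0.67) for Hbb-bt and 0.83 (SE 0.70) for Alas2. The lowest adjusted p was that of Hba-a1, 0.118 by edgeR, with a 95% interval of -0.12 to 2.94, and it ran from 0.0625 to 0.849 over the alternatives.

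Replicate 3 of operated MRL carried this difference in 4 of the 5 genes. Without it the log2 fold changes were 0.16 for Hba-a1, -0.06 for Hbb-bs, -0.0044 for Hbb-bt and -0.39 for Alas2, while Hba-a2, at a few counts a sample, stayed at 0.93, and over all genes 3490 in place of 5272 were called. Without replicate 2 of unoperated MRL, its highest sample, they were 1.98 for Hba-a1, 1.74 for Hbb-bs, 1.66 for Hbb-bt and 1.47 for Alas2. In that setting 3 of the 5 had an unadjusted p under 0.05 and 0 were called.

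The surgery effects of the strains were compared directly by the interaction, MRL minus BL6. It called 0 of the 5 genes by edgeR, DESeq2 or limma-voom and 0 at an unadjusted p under 0.05 by edgeR, beside 0.248% of all genes called by edgeR. The interaction was 1.35 (SE 1.003) for Hba-a1, 0.999 (SE 0.88) for Hba-a2, 1.35 (SE 0.98) for Hbb-bs, 1.25 (SE 0.94) for Hbb-bt and 1.70 (SE 0.99) for Alas2. Alas2 had the lowest adjusted p of the 5, 0.398 in edgeR's quasi-likelihood test. The interaction without replicate 3 of operated MRL was 0.10 for Hba-a1, 0.85 for Hba-a2, 0.12 for Hbb-bs, 0.14 for Hbb-bt and 0.48 for Alas2. For Hba-a2 it was 0.28 without replicate 3 of unoperated BL6. In the authors' deposited table, none of the 5 had a false discovery rate under 0.05 for surgery either, the lowest being 0.0817 for Hba-a1 in MRL.

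**Figure D2:**
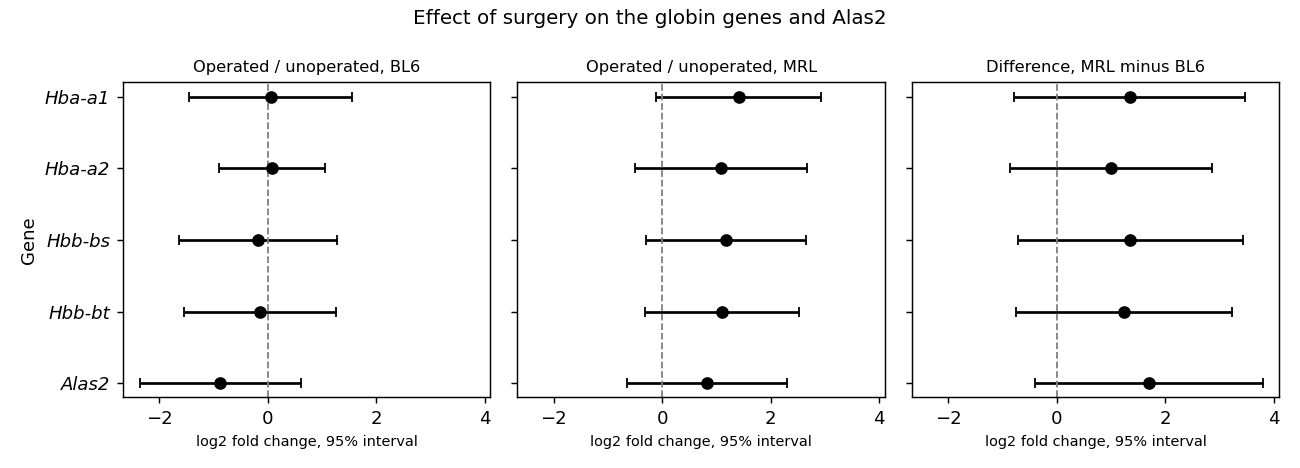
Log2 fold change for surgery in BL6 and in MRL, and their difference, for each gene (points) with 95% intervals (bars) from edgeR's quasi-likelihood fit to all 16 samples. Every interval spans 0; the MRL estimates lie between 0.83 and 1.41 and the BL6 estimates between -0.87 and 0.08.

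Within each sample the chains kept close proportions although their levels differed widely. The beta counts per alpha count were 3.33, 3.37, 2.98 and 3.10 in unoperated BL6 and 2.72, 2.78, 2.64 and 2.501 in operated BL6. In MRL they were 3.40, 3.36, 3.29 and 3.66 in unoperated samples and 2.58, 2.998, 2.85 and 3.11 in operated samples. In both strains every operated sample lay below every unoperated sample. Such separation was common, as the CPM ranges did not overlap for 56.8% of single genes in BL6 and 33.7% in MRL. The means went from 3.20 ± 0.188 to 2.66 ± 0.121 in BL6 and from 3.43 ± 0.160 to 2.88 ± 0.231 in MRL (SD, n = 4). This ratio is a score over the chosen genes and was not tested.

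Alas2 relative to the beta chain was also lower in the operated samples of BL6. It stood at 58.3, 46.0, 50.3 and 51.1 Alas2 counts per 1000 beta counts in unoperated BL6 and at 33.3, 36.1, 30.5 and 29.3 in operated BL6. In MRL it stood at 36.9, 41.1, 42.7 and 28.0 in unoperated samples and at 33.2, 28.6, 30.7 and 31.2 in operated samples. The BL6 groups did not overlap, where 56.8% of single genes did not either, and the MRL groups did. Among unoperated samples every MRL value lay below every BL6 value, where 25.1% of single genes had no overlap. On leaving out each sample in turn, the difference of means in BL6 ran from -20.9 to -16.8 and that in MRL from -9.31 to -4.42.

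Markers of other cell types also changed with surgery, beside these ratios. Of 15 endothelial markers, all measured, 13 rose in BL6 and 14 in MRL by edgeR, beside 35.1% and 22.3% of all genes, and none fell. Their summed level was 626 to 831 CPM in unoperated and 1435 to 1786 CPM in operated BL6, and 513 to 696 and 736 to 1693 CPM in MRL. Alpha globin is also known to be made in the endothelium of small arteries. Without replicate 3 of operated MRL, 13 of the 15 rose in MRL. Of the 12 skeletal muscle markers 6 fell in BL6 and 3 in MRL, beside 32.8% and 22.7% of all genes, so the MRL share was near that of all genes, and without that sample 1 fell in MRL. The part of these cells in the ratios was not tested.

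**Figure D3:**
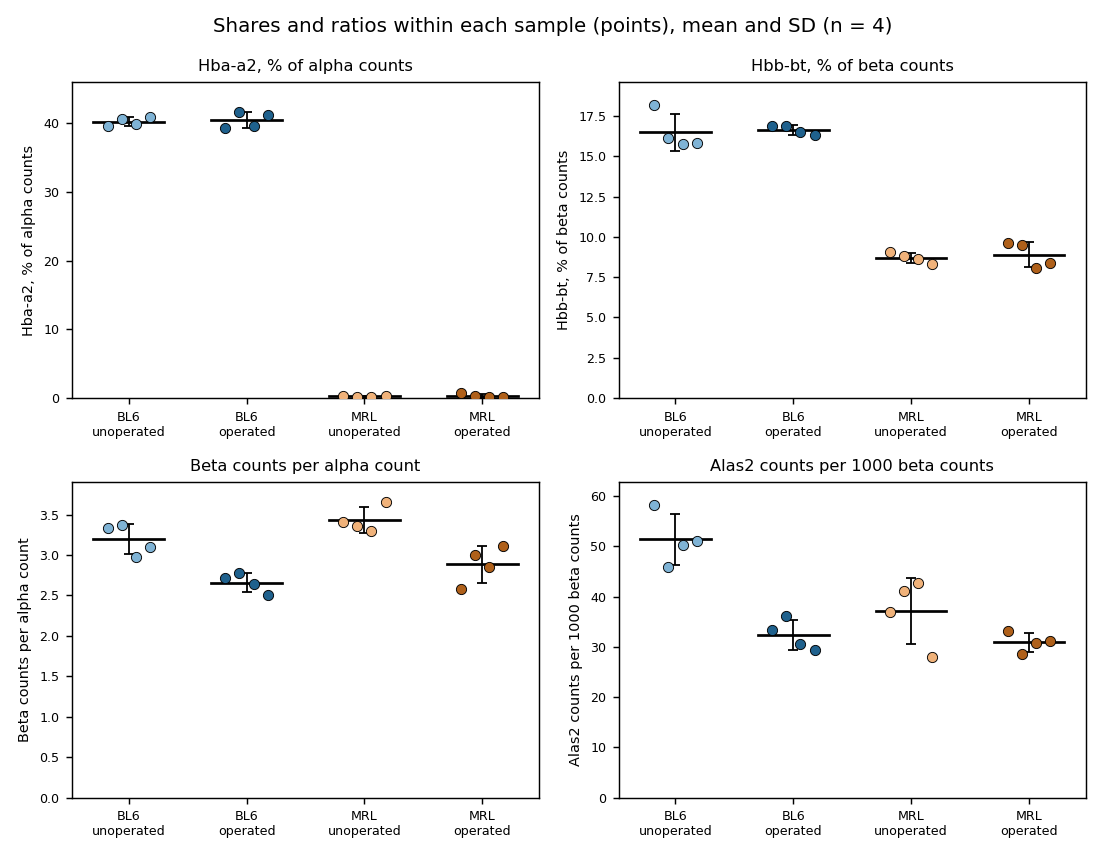
Share of Hba-a2 in alpha counts, share of Hbb-bt in beta counts, beta counts per alpha count and Alas2 counts per 1000 beta counts, each by group with points for samples and the mean with SD (n = 4). The first 2 panels separate the strains, and in the other 2 the operated BL6 samples lie below the unoperated ones.

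Differences between replicates of a group were large for these genes. The within-group SD of log2 CPM was 1.09 for Hba-a1, 1.08 for Alas2, 1.06 for Hbb-bs, 1.03 for Hbb-bt and 0.92 for Hba-a2. The median of all genes was 0.23, and the 5 genes stood at the 98.3 to 99.2 percentile of genes.

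The 5 genes varied together from sample to sample within a group, with Hba-a2 in MRL as the exception. Over the 16 samples, with each group's mean removed from log2 CPM, summed alpha and summed beta were related with Pearson's r at 0.997 and Spearman's rho at 0.988. Without the 2 samples farthest from the median, replicate 3 of operated MRL and replicate 2 of unoperated MRL, r was 0.995. For Alas2 and summed beta r was 0.987, rho 0.991, and r without those samples 0.976. These values share libraries and depth and are descriptions without a p.

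Hba-a2 was tied to the beta chain in BL6, with an r of 0.997 over its 8 samples, and less in MRL, with 0.501 over 8 samples at a few counts each. Hbb-bt followed the beta sum in both strains, with r of 0.996 in BL6 and 0.997 in MRL, though the sum contains it.

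**Figure D4:**
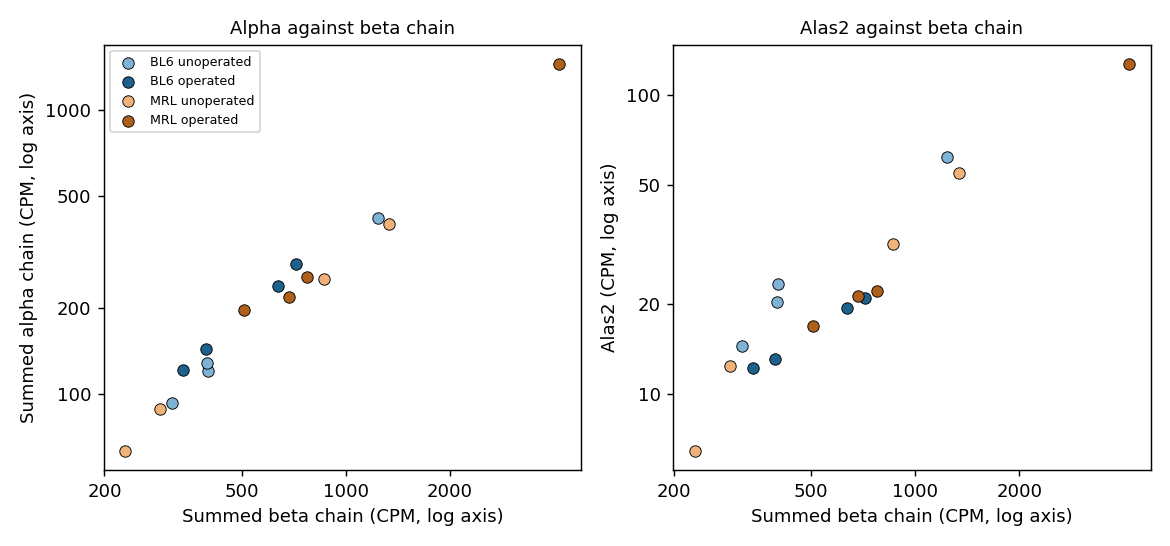
Summed alpha chain (left) and Alas2 (right) against the summed beta chain, in CPM on log axes, with a point for each of the 16 samples, coloured by group. The points follow a line from 230 to 4153 CPM of beta chain; replicate 3 of operated MRL is the point at the upper right.

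The genes most like the summed beta chain, among 9621 genes of at least 5 CPM, were Tent5c (r = 0.956), Mkrn1 (0.938), Ube2l6 (0.937), Dnm2 (0.832) and Borcs8 (0.823), over the 16 group-centred samples. The same 5 were the most like Alas2. Of the genes ranked, 6 had an r of at least 0.8 and 3 of at least 0.9, and the median r was -0.06. Spearman's rho with the beta chain was 0.862 for Tent5c, 0.818 for Mkrn1, 0.821 for Ube2l6, 0.812 for Dnm2 and 0.874 for Borcs8. Without the 2 farthest samples, r was 0.918 for Tent5c, 0.891 for Mkrn1, 0.887 for Ube2l6, 0.873 for Dnm2 and 0.785 for Borcs8.

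Tent5c, a poly(A) polymerase, measured 5.16, 5.03, 19.8 and 4.63 CPM in operated MRL and 4.15, 3.02, 7.11 and 3.54 CPM in unoperated BL6, with the same high samples as the globins. Mkrn1, a ubiquitin ligase, measured 20.4, 18.7, 39.1 and 18.7 CPM in operated MRL. Ube2l6, a ubiquitin- and ISG15-conjugating enzyme, measured 10.4, 7.84, 24.9 and 8.48 CPM there. In these 3 genes replicate 3 stood far above the other samples of the group. Dnm2, a dynamin of membrane scission, ran only from 58.6 to 64.2 CPM in operated MRL, and Borcs8, a subunit of a complex that positions lysosomes, from 12.6 to 16.3 CPM. The last 2 thus varied far less between samples than the globins.

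**Figure D5:**
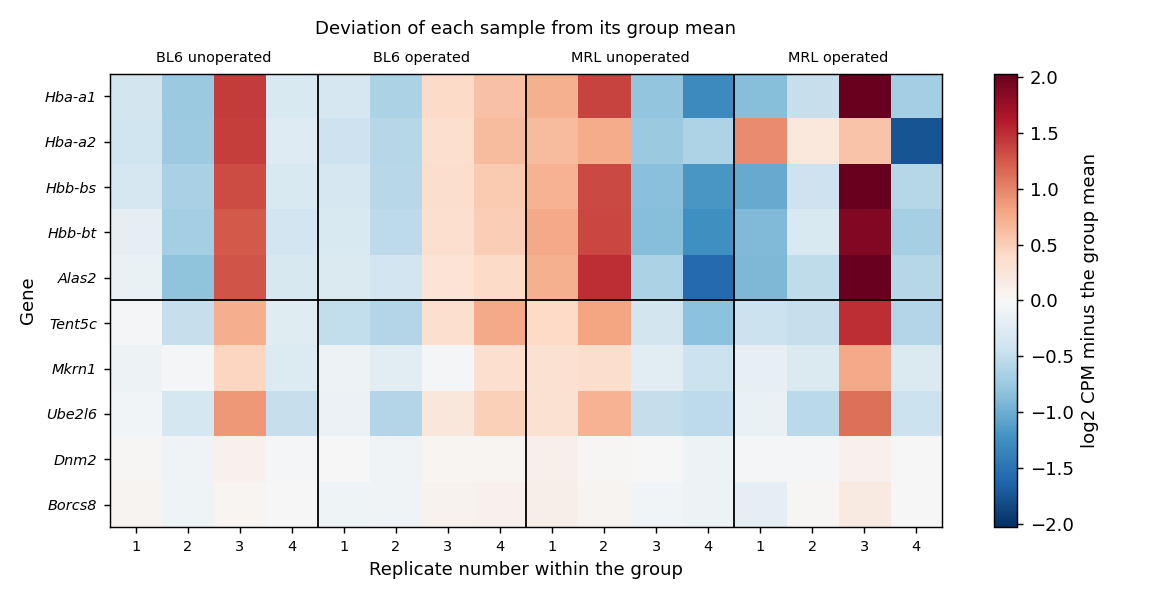
Deviation of each sample's log2 CPM from its group mean for the 5 genes (upper rows) and the 5 genes most like the summed beta chain (lower rows), with replicates 1 to 4 of each group in columns. The upper rows share their sign in every column except replicates 1 and 2 of operated MRL, where Hba-a2 differs, and Dnm2 and Borcs8 deviate little.

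Other genes of the red cell were read from a list of 45, of which 24 were measured. In BL6 5 rose and 10 fell after surgery, where 35.1% and 32.8% of all genes did, and the median log2 fold change was -0.03 beside 0.04 for all genes. In MRL 8 rose and 9 fell, where 22.3% and 22.7% of all genes did, with a median of 0.31 beside 0.01. Without replicate 3 of operated MRL, 5 rose and 5 fell in MRL and the median was 0.0031. The most abundant members of the list, the channel Aqp1, the membrane adaptor Ank1 and the actin-capping Tmod1, are also expressed outside red cells: in BL6 Aqp1 rose by 0.91 (SE 0.28), Ank1 fell by 1.15 (SE 0.22) and Tmod1 fell by 0.91 (SE 0.20) on the log2 scale. Their r with the beta chain was 0.04, -0.37 and -0.23, far from those of the globins. Over the measured genes of the list, r with the beta chain ran from -0.42 to 0.956, with a median of 0.16. Besides Tent5c, Mkrn1 and Ube2l6, high values in this list included those of Isg20 (0.935) and Bnip3l (0.798), named after their values were seen.

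The other genes of heme synthesis included more that fell than rose after surgery. Of 15 genes of heme synthesis and its mitochondrial transport besides Alas2, all measured, 1 rose and 7 fell in BL6, beside 35.1% and 32.8% of all genes, and 1 rose and 7 fell in MRL, beside 22.3% and 22.7%. Without replicate 3 of operated MRL, 5 fell in MRL. Alas1, the first enzyme outside red cells, fell by 0.88 (SE 0.17) in BL6 and by 0.70 (SE 0.17) in MRL. Fech, which inserts iron into protoporphyrin to make heme, fell by 1.35 (SE 0.19) and by 0.72 (SE 0.19). Urod, a middle enzyme of the pathway, did not pass, at -0.08 and -0.13. Their r with the beta chain ran from -0.48 to 0.66, with a median of -0.22, against 0.987 for Alas2.

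Of 22 genes of hemoglobin and heme clearance and of iron handling, 18 were measured. In BL6 10 rose and 4 fell, beside 35.1% and 32.8% of all genes, and in MRL 4 rose and 3 fell, beside 22.3% and 22.7%, which is near or below the share of all genes in MRL. Without replicate 3 of unoperated BL6, 9 rose in BL6, and likewise 9 without replicate 3 of operated MRL. The most abundant was Fth1, the ferritin heavy chain, which rose by 0.50 (SE 0.16) in BL6 and had a log2 fold change of 0.14 in MRL that did not pass. Lrp1, the receptor for hemopexin bound to heme, rose by 0.77 (SE 0.33) in BL6 and did not pass in MRL. Its adjusted p in BL6 was close to the threshold, at 0.0490 in edgeR's quasi-likelihood test. The heme transporter Slc48a1 did not pass in either strain. Named after its values were seen, Hp, haptoglobin, which binds free hemoglobin, rose in both strains, from 3.73 ± 1.45 to 56.6 ± 66.6 CPM in BL6 and from 3.29 ± 1.15 to 34.4 ± 28.2 CPM in MRL (SD, n = 4). Its r with the beta chain within groups was 0.14.

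Of 12 other globins, Mb and Cygb, cytoglobin of connective tissue cells, were measured. Mb did not pass for surgery, with log2 fold changes of 0.34 (SE 0.21) in BL6 and 0.40 (SE 0.21) in MRL. Cygb rose by 1.80 (SE 0.27) in BL6 and by 1.25 (SE 0.26) in MRL, both called by edgeR. Neither followed the blood globins closely, with r of -0.07 and 0.45 against the beta chain.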

How the data were processed

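RNA was sequenced from 16 muscle samples, 4 per group, grouped by strain and surgery in the labels. The authors deposited whole-number counts per gene, per the file headers and values without normalization. They also deposited log2 fold changes and an average log2 CPM, and p-values with false discovery rates for 4 comparisons of groups, per the file headers. The submitters' processing notes name FastQC, STAR, edgeR and mm10, with no versions given in the sources used here.

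From the counts, R 4.3.3 and edgeR 4.0.16 gave TMM factors, filterByExpr at a minimum count of 10 (11709 of 11710 genes kept) and a quasi-likelihood fit of 4 group means to all 16 samples. P-values were adjusted by Benjamini-Hochberg over all genes and called under 0.05. Correlations used log2 CPM with a prior count of 2, less the group mean. Motifs and coding sequences were compared by exact string matching. Of the gene IDs, 11708 were found in GENCODE M21. The model was also run on simulated data in which all genes had the same spread. That run does not cover genes as variable between replicates as the globins. No replicates agreed within sampling noise.

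Alternatives were median-ratio size factors, total counts alone, no filter, DESeq2 1.42.0, limma-voom 3.58.1, only the groups compared, a replicate block, no mitochondrial genes, copies added per chain, and each sample left out. Leaving samples out of the shares and ratios, and out of the list counts, was added after seeing the data.

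The genes and lists were chosen with earlier results of these data known. Named are all 5 genes, the 3 most abundant genes of each list discussed, and the 5 genes most like summed beta and most like Alas2 (at least 5 CPM, no predicted-gene or Riken names). Isg20, Bnip3l and Hp are exceptions. 1 gene of the red cell list is not reported here by name. The Clopper-Pearson intervals of shares and the floors cover counting error only. They take each count as separate, although no molecular identifiers mark which reads stem from the same molecule. The intervals of log2 fold changes come from the quasi-likelihood fit and include the spread between samples of a group.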

Additional observations from a re-analysis of the deposited data

Results flagged for a closer look

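In 14 of 48 groups of 4 samples examined, 1 sample lay far from the other 3, with a gap to its nearest neighbour that, divided by the group's range, passed Dixon's critical value. That value marks about 1 in 20 groups by chance where values are normally distributed. The levels were examined without a log scale, so this rate need not hold for them. The measures are also not independent, since the genes move together. All 14 came from 2 samples.

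Replicate 3 of unoperated BL6 stood above its group in all 4 globin genes: Hba-a1 at 250.1 CPM beside 75.7 in the next sample, Hba-a2 at 166 beside 52.4, Hbb-bs at 1044 beside 334 and Hbb-bt at 195 beside 72.5. Its summed alpha chain was 416 CPM, its summed beta chain 1239 CPM, and the globins took 0.145% of its counts. Alas2 was also highest there, at 62.3 CPM.

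Replicate 3 of operated MRL stood above its group in Hba-a1 at 1455 CPM beside 257, in Hbb-bs at 3817 beside 701, in Hbb-bt at 336 beside 73.5 and in Alas2 at 127 beside 22.2. Its summed alpha chain was 1456 CPM, its summed beta chain 4153 CPM, and the globins took 0.607% of its counts. Its Hba-a2, at 1.17 CPM, was within the range of its group.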

How the results depend on the processing

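No alternative called any of the 5 genes for surgery or the interaction; with copies added per chain, this covers Alas2 alone. Whether the replicate numbers pair the samples is not settled. Deviations of same-numbered samples correlated on average at -0.141 across surgery in BL6 and 0.0920 in MRL. Between strains the averages were 0.160 among unoperated and 0.165 among operated samples. For different-numbered samples they were 0.0531, -0.0405, -0.0463 and -0.0443 in the same order. These averages rest on few pairs of samples and cannot decide the question. With the replicate block, Hbb-bs in BL6 was 0.085 and Hbb-bt 0.094. The block also lowered the MRL values, to 0.81 for Hba-a1, 1.01 for Hba-a2, 0.60 for Hbb-bs, 0.63 for Hbb-bt and 0.35 for Alas2, and the interaction, to 0.45, 0.74, 0.51, 0.54 and 0.97 in that order. With it 2 genes in place of 29 were called for the interaction. With total counts alone, which moved the median of all genes in BL6 by 0.14, Hbb-bs and Hbb-bt in BL6 were 0.055 and 0.081, with 14 genes called for the interaction, and DESeq2 called 250. The cause was not tested.

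Leaving out each sample in turn, log2 fold changes in BL6 ran from -0.17 to 0.80 for Hba-a1, -0.17 to 0.81 for Hba-a2, -0.39 to 0.50 for Hbb-bs and -0.35 to 0.47 for Hbb-bt. In MRL they ran from -0.059 to 1.74 for Hbb-bs, -0.0044 to 1.66 for Hbb-bt and -0.39 to 1.47 for Alas2. Genes called for surgery in MRL ran from 3490 to 6145, and for the interaction from 1 (without replicate 2 or 4 of unoperated BL6, or replicate 1 of operated MRL) to 69 (without replicate 2 of operated BL6). Between operated strains, the log2 ratio ran from 0.18 to 1.70 for summed alpha and from 0.33 to 1.84 for summed beta. Depth limits Hba-a2 in MRL most, at 6 to 38 counts a sample.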

Other observations

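Markers of blood cells other than red cells were read from the same libraries. Of 13 platelet markers 4 were measured, and by edgeR 3 rose after surgery in each strain and none fell. Of all genes 35.1% rose in BL6 and 22.3% in MRL, the shares to set beside this and the following counts, which rest on few genes. Pf4, a platelet chemokine, rose by 1.85 (SE 0.38) on the log2 scale in BL6 and by 1.14 (SE 0.37) in MRL. Itga2b, a platelet integrin, rose by 1.01 (SE 0.32) and by 1.41 (SE 0.33), and its r with the beta chain within groups was 0.706. Itgb3, its partner, rose by 0.92 (SE 0.32) in BL6 and did not pass in MRL. Without replicate 3 of operated MRL, 2 platelet markers rose in MRL.

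The neutrophil markers measured were S100a9, which rose by 1.86 (SE 0.55) in BL6 and by 1.89 (SE 0.56) in MRL, and Mmp9, which rose by 2.69 (SE 0.69) in BL6 and did not pass in MRL. Without replicate 3 of operated MRL, neither passed in MRL. The lymphocyte markers measured were immunoglobulin genes: Ighm fell by 1.56 (SE 0.37) and by 2.33 (SE 0.38), and Igkc rose by 3.77 (SE 0.85) in BL6 and did not pass in MRL. Of 6 genes listed as bone marrow progenitor markers, Kit, Cd34 and Gata2 were measured and rose in both strains. Their r against the beta chain was 0.02, 0.22 and 0.05. Without replicate 3 of operated MRL, 1 of these 3 rose in MRL. Which cells of the muscle expressed them was not tested, so the rise is not a measure of marrow cells.

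Among the 15 endothelial markers, Pecam1 rose by 1.28 (SE 0.20) in BL6 and by 1.07 (SE 0.20) in MRL, and Cdh5 by 1.09 (SE 0.23) and 1.27 (SE 0.23). Flt1 did not pass in either strain. Their r with the beta chain was 0.10, 0.33 and 0.0044.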
